A study of Mus musculus with 12 samples.

Results

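Glycolysis and hypoxia response genes were examined in 6 clones of MH-S, an immortalised cell line from mouse alveolar macrophages. The set listed 32 genes by name: enzymes and transporters that carry glucose to pyruvate and lactate, and subunits, hydroxylases and targets of the hypoxia-inducible factors (HIF). Of these, 31 were found among the 27296 genes with a symbol on the array, 21 of them enzymes and transporters and 10 of them HIF regulators and targets outside glycolysis. The members were listed by name, with earlier results of these data known. Tpi1 was not found under its symbol and is treated apart.

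Total RNA was hybridised to 12 Affymetrix Mouse Gene 2.1 ST arrays, 1 per clone and condition. The 4 groups of 3 arrays were high IL-4Ra activity clones (69, 73 and 83) after 16 h with lipopolysaccharide (LPS, 0.2 µg/ml, from Salmonella Minnesota R595), the same high clones unstimulated, low IL-4Ra activity clones (7, 29 and 75) with LPS, and the same low clones unstimulated. IL-4Ra is a receptor chain for interleukin-4, and the labels do not say how its activity was scored. All groups come from the same line and the same medium, so clones stand in for biological replicates, and RNA of whole cultures cannot tell a change in every cell from a change in the share of cells that express a gene.

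Glycolysis turns glucose into pyruvate in the cytosol, and macrophages activated through the LPS receptor TLR4 are known for a switch towards it, with pyruvate sent to lactate instead of the mitochondria. HIF-1 and HIF-2 are transcription factors made of an oxygen-labile alpha subunit (Hif1a or Epas1) and a stable partner; prolyl hydroxylases (the Egln genes) mark the alpha subunit for destruction when oxygen is present. HIF binds the core sequence ACGTG or GCGTG near its targets, which include many glycolytic enzymes, and LPS is known to stabilise HIF-1 alpha in macrophages at normal oxygen.

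Values are log2 levels as deposited. The median of an array lay between 4.42 and 4.46, and arrays of a group correlated at 0.992 to 0.995 across genes. Of the 31 members, 22 lay above the 95th percentile of the array's intron control features, used here as background, on all 12 arrays; Pfkfb3, Aldoa, Eno1, Ddit4 and Ankrd37 lay below it on every array. Of 12 general macrophage markers 9 were above that background on all arrays, against 0 of 12 alveolar macrophage markers (Siglecf and Marco among those at a low level), 0 of 8 lymphocyte markers and 1 of 11 fibroblast, epithelial or endothelial markers. The summed log2 level of the macrophage list was 120.15 to 121.15 in high clones with LPS and 114.51 to 116.3 in low clones with LPS. Unstimulated, it was 120.53 to 122.07 in high clones and 116.65 to 119.24 in low clones, so high and low clones did not overlap in either condition. With LPS 10 of the 12 were higher in high clones and 2 lower, and 1 was called. Unstimulated, 8 were higher and 4 lower, and 0 were called. Tyrobp differed most with LPS (means 10.51 and 8.56 in high and low clones), and Fcgr1 went the other way (9.79 and 10.35). Adgre1 went the other way unstimulated (10.10 and 10.44). The fibroblast, epithelial and endothelial list summed to 46.93 to 51.87 in low clones with LPS, against 45.62 to 45.85 in unstimulated low clones, and to 46.63 to 47.44 in high clones with LPS, against 45.95 to 47.07 in unstimulated high clones. Within this list Dcn changed most in low clones, from a mean of 3.36 unstimulated to 5.97 with LPS. There 4 of the 11 markers were lower with LPS and 1 was called. The part of these differences in the results was not tested.

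With LPS over all clones, 2 of the 31 members rose and 6 fell at an adjusted p under 0.05 in limma's test over all genes. Hk2, the inducible hexokinase, and Vegfa, a vascular growth factor and HIF target, rose by about the same amount. Epas1, the alpha subunit of HIF-2, fell most, followed by Pfkm, Aldoc, Pdk1, Aldoa and Pfkp. Among all 27296 genes tested, 5.72% were called higher and 6.72% lower. The 21 enzymes and transporters had 1 member higher and 5 lower with a median log2 change of −0.03, the 10 HIF genes had 1 higher and 1 lower with a median of −0.08, and the median over all genes was −0.01. The median size of the change, whatever its sign, was 0.12 for enzymes, 0.20 for HIF genes and 0.11 for all genes. With the clone as a block, which removes each clone's own baseline, 3 members rose (Ero1a added) and 6 fell (Egln3 added, Pfkp no longer called), where 7.16% of all genes were called higher and 8.82% lower.

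**Figure D1:**
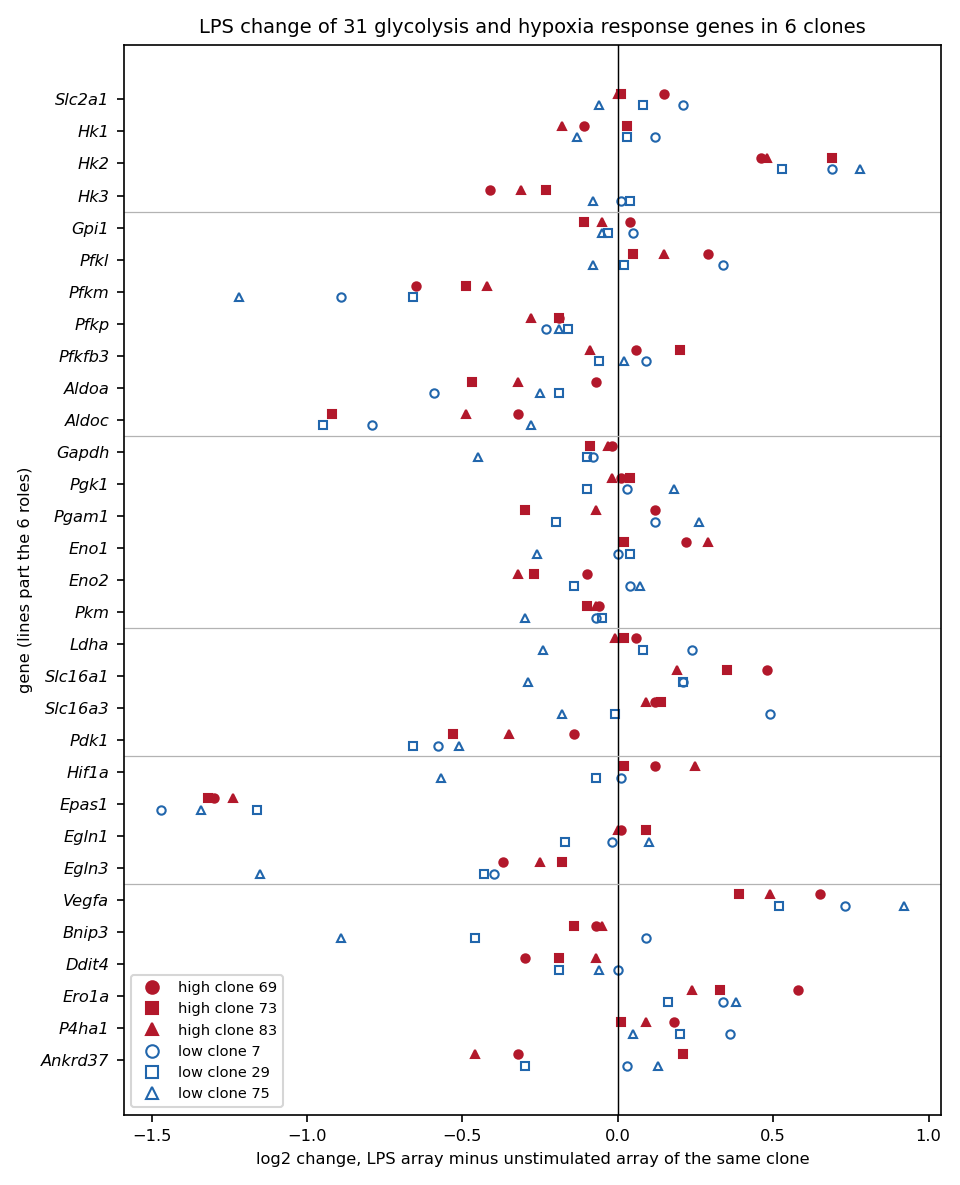
Change on the log2 scale of each member in each clone, LPS array minus unstimulated array of the same clone, with filled red symbols for high clones and open blue symbols for low clones; the genes are ordered by role and lines part the 6 roles. Hk2, Vegfa, Ero1a and P4ha1 lie right of 0 in all 6 clones and Pfkm, Pfkp, Aldoa, Aldoc, Gapdh, Pkm, Pdk1, Epas1 and Egln3 left of it, while most other members scatter around 0. Some of these steps are as small as 0.01 (P4ha1, clone 73) and −0.02 (Gapdh, clone 69). The Gapdh feature lies over a pseudogene, and the share of all genes with the same sign in all 6 clones is not given.

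Glucose entry and phosphorylation had 1 of 4 members called, where 5.72% of all genes were called higher and 6.72% lower. Hk2 (chromosome 6, 82725025 to 82774454, minus strand, mm10), which traps glucose as its phosphate, stood at 7.69, 7.56 and 7.40 with LPS in high clones 69, 73 and 83 and at 7.68, 7.48 and 7.54 with LPS in low clones 7, 29 and 75. Unstimulated, it stood at 7.23, 6.87 and 6.92 in the high clones and at 6.99, 6.95 and 6.76 in the low clones. All 6 LPS arrays lay above all 6 unstimulated ones, and the level passed background on 7 arrays. The log2 change was 0.60 ± 0.09 (SE, 1.52-fold, adjusted p = 0.000441). Slc2a1, the glucose transporter GLUT1, lay between 12.17 and 12.48 on every array with a change of 0.07 ± 0.07 (adjusted p = 0.654). Hk1, the constitutive hexokinase (−0.04 ± 0.07, adjusted p = 0.827), and Hk3, a hexokinase of myeloid cells (−0.16 ± 0.07, adjusted p = 0.137), were not called either.

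Upper glycolysis, from hexose phosphate to triose phosphates, had 4 of 7 members lower with LPS and 0 higher. Of all genes, 6.72% were called lower and 5.72% higher. Pfkm, the muscle form of phosphofructokinase (chromosome 15, 98092589 to 98132447, plus strand), stood at 8.30, 8.15 and 8.50 with LPS in high clones 69, 73 and 83 and at 7.78, 8.10 and 7.47 in low clones 7, 29 and 75. Unstimulated, it stood at 8.95, 8.64 and 8.92 in the high clones and at 8.67, 8.76 and 8.69 in the low clones. The LPS and unstimulated arrays did not overlap, and the lowest value was that of low clone 75 with LPS. Its log2 change was −0.72 ± 0.11 (1.65-fold lower, adjusted p = 0.00057). Pfkp, the platelet form (chromosome 13, 6579768 to 6648777, minus strand), stood at 10.44, 10.42 and 10.39 with LPS in the high clones and at 10.36, 10.37 and 10.49 in the low clones, against 10.63, 10.61 and 10.67 in unstimulated high clones and 10.59, 10.53 and 10.68 in unstimulated low clones. This change was small but without overlap: −0.21 ± 0.06 (1.15-fold lower, adjusted p = 0.0481, and 0.052 with the clone as a block). Pfkl, the liver form, had 0.13 ± 0.11 (adjusted p = 0.539), so the 3 phosphofructokinase genes gave 2 falls and 1 change that was not called. Gpi1, the isomerase before them, had −0.03 ± 0.06, and Pfkfb3, which makes the activator of phosphofructokinase, 0.04 ± 0.09; neither was called (adjusted p = 0.877 and 0.875).

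Both aldolase genes fell. Aldoc, known as the brain form (chromosome 11, 78322968 to 78327781, plus strand), stood at 8.97, 8.62 and 8.68 with LPS in high clones 69, 73 and 83 and at 8.51, 8.42 and 8.89 in low clones 7, 29 and 75. Unstimulated, its levels were 9.29, 9.54 and 9.17 in the high clones and 9.30, 9.37 and 9.17 in the low clones. No LPS array reached the lowest unstimulated one, and the log2 change was −0.62 ± 0.10 (1.54-fold lower, adjusted p = 0.00119). Aldoa, the main form in most tissues (chromosome 7, 126795234 to 126800751, minus strand), stood at 6.45, 6.15 and 6.18 with LPS in the high clones and at 6.21, 6.53 and 6.66 in the low clones, against 6.52, 6.62 and 6.50 in unstimulated high clones and 6.80, 6.72 and 6.91 in unstimulated low clones. The groups overlapped, although each clone was lower with LPS (by 0.07 to 0.59). Its change was −0.32 ± 0.09 (1.24-fold lower, adjusted p = 0.0368), on a feature of 13 probes below the intron background on all arrays. Aldoa was not called without the unstimulated sample of clone 7 (adjusted p = 0.0691), 75 (0.0891), 69 (0.06), 73 (0.0798) or 83 (0.0561), or without the LPS sample of clone 7 (0.0803), 29 (0.0514), 73 (0.0865) or 83 (0.0835), and Pfkp stayed called without the LPS sample of clone 75, with adjusted p of 0.0602 to 0.113 without each of the other 11 arrays.

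Lower glycolysis, from triose phosphates to pyruvate, had 0 of 6 members called (lowest adjusted p = 0.308), where 5.72% of all genes were called higher and 6.72% lower. Pgk1, a kinase that yields ATP, kept between 12.04 and 12.35 on all arrays with a change of 0.02 ± 0.07. Pkm, pyruvate kinase, changed by −0.11 ± 0.06 (adjusted p = 0.347), lower with LPS in 6 of 6 clones. Pgam1 (−0.01 ± 0.10), Eno1 (0.05 ± 0.09, below background) and Eno2 (−0.12 ± 0.07), a mutase and 2 enolases, were not called. The brightest feature named Gapdh does not lie in the Gapdh gene: it spans chromosome 6, 83874199 to 83875427, over the RefSeq pseudogene Gm5138, and its probes are marked as binding other transcripts. Its change was −0.13 ± 0.07 (adjusted p = 0.308). The feature at the Gapdh gene itself (chromosome 6, 125161854 to 125166467, 12 probes) changed by −0.08 ± 0.11 (adjusted p = 0.738). Tpi1, triosephosphate isomerase, has no feature of that symbol; one annotated as LOC100044508, described as triosephosphate isomerase-like, spans chromosome 6, 124810586 to 124814296, which begins where RefSeq places Tpi1. It lay between 12.16 and 12.39 on all arrays and changed by −0.06 ± 0.07 (adjusted p = 0.670).

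At the fate of pyruvate, 1 of 4 members was called, where 5.72% of all genes were called higher and 6.72% lower. Pdk1, a kinase that switches off pyruvate dehydrogenase and so keeps pyruvate out of the mitochondria (chromosome 2, 71873224 to 71903858, plus strand), stood at 7.59, 7.14 and 7.17 with LPS in high clones 69, 73 and 83 and at 7.13, 7.34 and 7.51 in low clones 7, 29 and 75. In unstimulated cells it stood at 7.73, 7.67 and 7.52 in the high clones and at 7.71, 8.00 and 8.02 in the low clones. Each clone was lower with LPS, while the ranges of the conditions overlapped through the LPS sample of clone 69. Its log2 change was −0.46 ± 0.10 (1.38-fold lower, adjusted p = 0.00901), and without both arrays of clone 73 it was −0.41 and not called (adjusted p = 0.0533). A second feature named Pdk1, which the test does not use, lies on the opposite strand and averaged 2.75, under the array medians, so it gives no further measure of Pdk1; the call was also lost when both features were averaged (−0.28, adjusted p = 0.0537). Ldha, which reduces pyruvate to lactate, changed by 0.03 ± 0.07 (adjusted p = 0.899). The lactate transporters Slc16a1 (0.19 ± 0.08, adjusted p = 0.162) and Slc16a3 (0.11 ± 0.14, adjusted p = 0.731) were not called; Slc16a1 was higher with LPS in 5 clones, by 0.19 to 0.48, and changed by −0.29 in clone 75, without which it was called (0.28, adjusted p = 0.0408).

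Among the HIF alpha subunits, Epas1 fell and no change of Hif1a was detectable. Epas1 (chromosome 17, 86753864 to 86833410, plus strand) stood at 7.83, 7.35 and 7.81 with LPS in high clones 69, 73 and 83 and at 7.20, 7.68 and 7.54 in low clones 7, 29 and 75. Without LPS its level was 9.13, 8.67 and 9.05 in the high clones and 8.67, 8.84 and 8.88 in the low clones. The highest LPS array (7.83) lay below the lowest unstimulated one (8.67). Its log2 change of −1.30 ± 0.12 (2.47-fold lower, adjusted p = 1.04e-05) was the largest of the set, and each clone fell by between 1.16 and 1.47. Hif1a (chromosome 12, 73901375 to 73947530, plus strand) stood at 10.55, 10.89 and 10.20 with LPS in the high clones and at 10.57, 10.46 and 10.15 in the low clones, against 10.43, 10.87 and 9.95 in unstimulated high clones and 10.56, 10.53 and 10.72 in unstimulated low clones. The groups overlapped throughout: the change was −0.04 ± 0.15 (adjusted p = 0.921), with single clones between −0.57 (clone 75) and 0.25 (clone 83). The other 2 features named Hif1a, one outside the gene over the pseudogene S100a11-ps and one on the opposite strand, averaged 5.12 and 4.83, below background, and give no further measure of Hif1a.

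The prolyl hydroxylase gene Egln3 (chromosome 12, 54178981 to 54203874, minus strand), itself a HIF target, stood at 10.28, 10.92 and 10.62 with LPS in high clones 69, 73 and 83 and at 9.46, 9.74 and 9.53 in low clones 7, 29 and 75. Unstimulated levels were 10.65, 11.10 and 10.87 in the high clones and 9.86, 10.17 and 10.68 in the low clones. Every clone was lower with LPS, by 0.18 to 1.15 with the largest step in clone 75, while the ranges of the conditions overlapped. The log2 change of −0.46 ± 0.15 was not called (adjusted p = 0.0561) and was called with the clone as a block (adjusted p = 0.0153). Without the block it was called when the unstimulated sample of clone 7 (0.0223) or 69 (0.0482), or the LPS sample of clone 73 (0.0325), was dropped. Egln1, the main oxygen sensor, lay between 8.54 and 8.99, with adjusted p = 0.995.

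Of the 6 HIF targets outside glycolysis, only Vegfa was called with LPS, where 5.72% of all genes were called higher and 6.72% lower. Vegfa (chromosome 17, 46016993 to 46032377, minus strand) stood at 9.23, 8.86 and 9.07 with LPS in high clones 69, 73 and 83 and at 8.96, 8.93 and 9.06 in low clones 7, 29 and 75, against 8.58, 8.47 and 8.58 in unstimulated high clones and 8.23, 8.41 and 8.14 in unstimulated low clones. All LPS arrays were above all unstimulated ones, with a log2 change of 0.62 ± 0.08 (1.53-fold, adjusted p = 0.000202). Ero1a (named Ero1l in the annotation), an oxidase that forms disulfide bonds in the endoplasmic reticulum, was higher with LPS in 6 of 6 clones, by 0.16 to 0.58. Its change of 0.34 ± 0.15 was not called (adjusted p = 0.186), and was called with the clone as a block (adjusted p = 0.0128). A second feature named for the gene, not used in the counts, lies on the opposite strand. It passed background only in the LPS samples of clones 69 and 73, so it gives no further measure of Ero1a. This feature changed by 0.43 ± 0.12 and was called without the block (adjusted p = 0.0275) and with it (0.00758). P4ha1, a collagen prolyl hydroxylase, was also higher in 6 of 6 clones, by 0.01 to 0.36, and not called (0.15 ± 0.09, adjusted p = 0.355). Bnip3, a mitophagy receptor, had −0.25 ± 0.16 (adjusted p = 0.401) with values from −0.89 in clone 75 to 0.09 in clone 7. Ddit4, an inhibitor of mTORC1, had −0.14 ± 0.11 (adjusted p = 0.545). Ankrd37, a small ankyrin-repeat protein, had −0.12 ± 0.13 (adjusted p = 0.687).

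**Figure D2:**
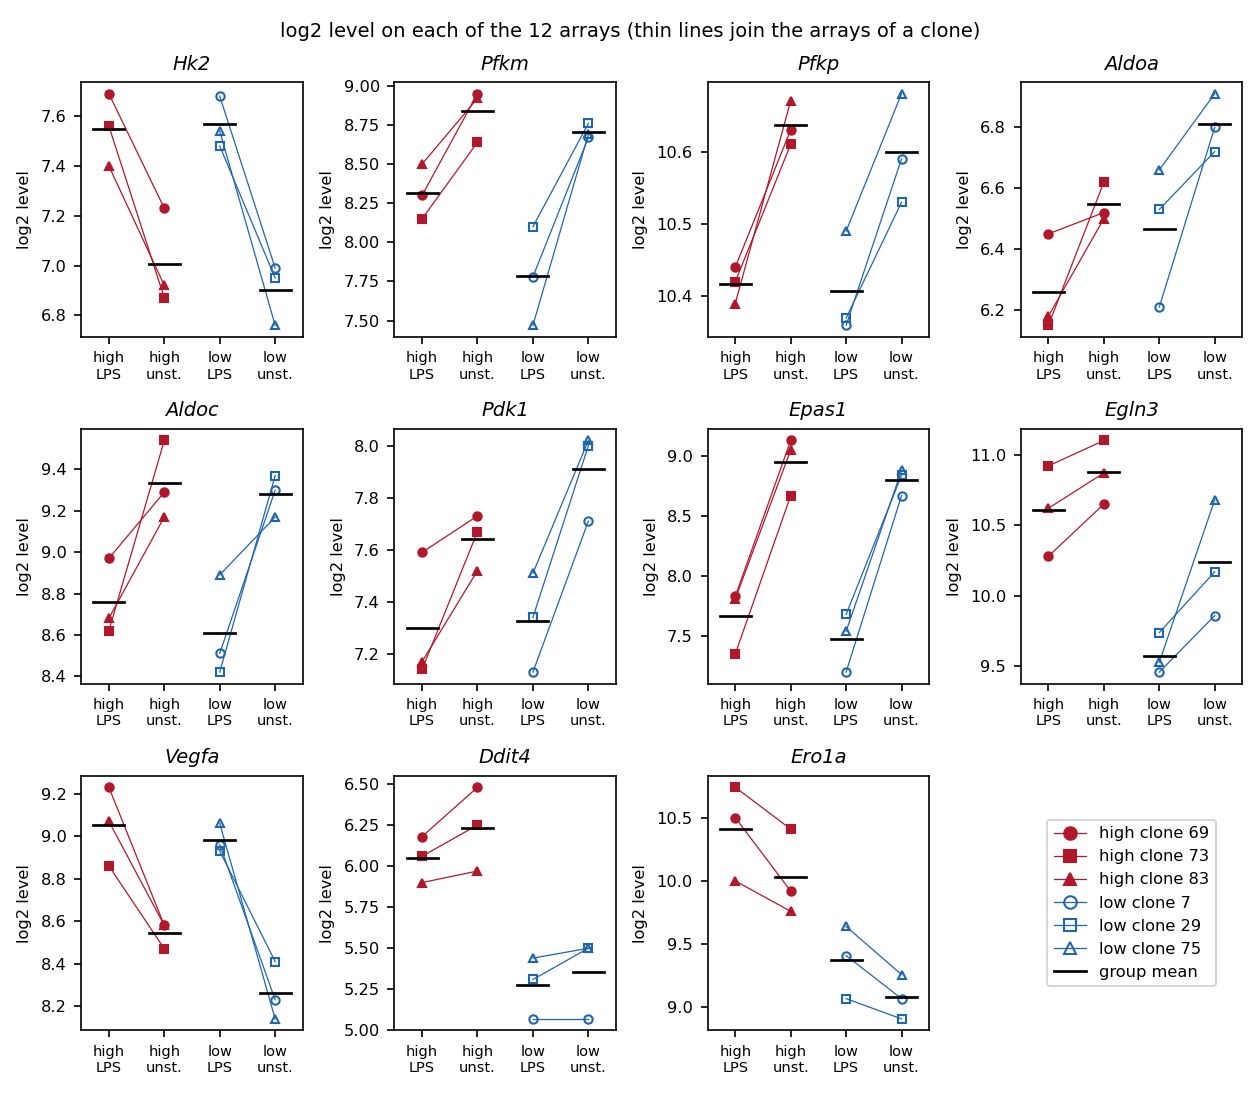
Deposited log2 level of the 11 members given value by value on each of the 12 arrays, in 1 panel per gene with its own vertical axis; symbols mark clones, thin lines join both arrays of a clone and black bars are group means. Hk2 and Vegfa are higher with LPS without overlap, Pfkm, Pfkp, Aldoc and Epas1 lower without overlap, and Ddit4 and Ero1a separate high from low clones in both conditions. The share of all genes that separate in these ways is not given, here or in the text. The feature used for Gapdh, which is not shown and was not called, was also lower with LPS without overlap.

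The called members moved the same way in each phenotype. In the high clones alone, 2 members rose and 2 fell, where 1.82% of all genes were called higher and 2.06% lower. In the low clones alone, 2 rose and 4 fell, against 3.59% and 4.13% of all genes. Hk2 changed by 0.54 ± 0.12 in high clones and 0.67 ± 0.12 in low clones (adjusted p = 0.0272 and 0.00455), Vegfa by 0.51 ± 0.11 and 0.72 ± 0.11 (0.0243 and 0.00154), and Epas1 by −1.29 ± 0.17 and −1.32 ± 0.17 (0.000811 and 0.000318). Aldoc changed by −0.58 ± 0.15 in high clones and −0.67 ± 0.15 in low clones (0.0458 and 0.012); with the clone as a block its call in the high clones was lost (0.0623). Pfkm was called in the low clones (−0.92 ± 0.15, adjusted p = 0.00211), and in the high clones with the block alone (−0.52 ± 0.15, adjusted p = 0.0878 without and 0.0339 with it). Pdk1 was called in the low clones (−0.58 ± 0.15, adjusted p = 0.0262) and not in the high clones (−0.34 ± 0.15, adjusted p = 0.278).

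None of these changes was shown to differ between the phenotypes. The test of the difference of the LPS responses, high minus low, called 0 of 31 members (lowest adjusted p = 0.983 in limma, and 0 with the clone as a block), with 0.011% of all genes called. The difference for Pfkm was 0.40 ± 0.22, for Pdk1 0.24 ± 0.21, for Egln3 0.39 ± 0.29 and for Vegfa −0.21 ± 0.16. Hk3 differed by −0.31 ± 0.13 (adjusted p = 0.983 in limma). Its changes were −0.41, −0.23 and −0.31 in high clones 69, 73 and 83 and 0.01, 0.04 and −0.08 in low clones 7, 29 and 75. The changes of Hk3 did not overlap between the phenotypes, and neither did those of Pfkm, Egln3 and Hif1a. None of these differences was called after adjustment over all genes, and the share of all genes that separate in this way is not given. With SEs of 0.13 to 0.32 over the members, the test does not show that the responses were equal.

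Calls in the high clones alone depended on single arrays. Hk2 was not called without the unstimulated sample of clone 73 (0.105) or 83 (0.0959), or the LPS sample of clone 69 (0.119) or 73 (0.0842). Vegfa was not called without the unstimulated sample of clone 69 (0.0557), 73 (0.0874) or 83 (0.06), or the LPS sample of clone 69 (0.112) or 83 (0.0716). Aldoc was called there without the LPS sample of clone 69, 29 or 75 and lost its call without each other array (adjusted p = 0.0544 to 0.167), and Pfkm gained a call without the LPS sample of clone 29 (0.0499) or 75 (0.0438). Epas1 stayed called in each phenotype without any 1 array or clone, with adjusted p of at most 0.0125 in high clones and 0.00906 in low clones. In the low clones Aldoc was not called without the unstimulated sample of clone 29 (0.056) or the LPS sample of clone 7 (0.0536) or 29 (0.0503), and Pdk1 without the unstimulated sample of clone 29 (0.1) or 75 (0.103) or the LPS sample of clone 7 (0.109) or 29 (0.0617). Hk2 was not called there without both arrays of clone 75 (0.0562).

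By the sign of the change alone, 5 of 21 enzymes and transporters were higher with LPS in clone 75 and 16 lower, with a median log2 change of −0.18. Clone 7, also a low clone, had 13 higher and 7 lower with a median of 0.04, and clone 29 had 8 higher and 13 lower. Among high clones, clone 69 had 11 higher and 10 lower, clone 73 had 10 and 11, and clone 83 had 5 and 15. These counts carry no test, as a clone has 1 array per condition. The pooled SD between clones of a group was 0.13 in the median over enzymes and transporters and 0.25 over HIF genes, against 0.14 over the 8009 genes with a mean log2 level of at least 7; it was highest for Bnip3 (0.33) and Hif1a (0.31), and, among enzymes and transporters, for Slc16a3 (0.28).

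The promoters of Hk2 and Vegfa, the members called higher with LPS, are shown because they differ in the HIF core within the same window. Each is 300 bases long, from 250 before to 50 after the most upstream start in RefSeq (GRCm38.p6), on the gene's strand and written 5′ to 3′, with capitals for ACGTG or GCGTG on either strand, which reads CACGT or CACGC where it lies on the opposite one.
Hk2 promoter, chr6:82774405-82774704, minus strand: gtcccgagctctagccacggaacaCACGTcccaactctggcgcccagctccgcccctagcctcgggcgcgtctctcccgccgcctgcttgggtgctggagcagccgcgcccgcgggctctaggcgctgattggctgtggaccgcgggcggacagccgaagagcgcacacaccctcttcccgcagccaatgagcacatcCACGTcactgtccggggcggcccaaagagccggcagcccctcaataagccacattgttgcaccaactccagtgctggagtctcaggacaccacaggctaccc
Vegfa promoter, chr17:46032328-46032627, minus strand: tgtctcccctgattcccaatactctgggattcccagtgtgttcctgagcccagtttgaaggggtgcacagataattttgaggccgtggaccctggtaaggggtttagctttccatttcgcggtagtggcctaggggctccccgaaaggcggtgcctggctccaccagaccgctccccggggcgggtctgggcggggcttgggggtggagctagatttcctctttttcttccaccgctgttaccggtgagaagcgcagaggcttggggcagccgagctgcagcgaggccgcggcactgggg
Hk2 holds 2 cores and Vegfa 0. Promoters were found for 30 members (Epas1 has no entry in the table), and 24 of them, 80% of 30, hold at least 1 core, against 43.8% of 27025 promoters of all genes. The members' windows had a median of 24 CpG and 65.2% GC, against 7 CpG and 52.7% GC over all promoters, and the core itself holds a CpG. Of the members lower with LPS, Pfkm holds 3 cores, Pfkp 4, Aldoc 3, Pdk1 2 and Aldoa 0. Ldha, with 7, holds the most and was not called. A core in this window is a match of letters and shows no binding. A window with 0 cores, as for Vegfa, does not show that the gene lacks a core elsewhere.

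The members called between high and low clones were HIF regulators and targets. Of 21 enzymes and transporters, 0 were called in either condition. That count is near the low shares of all genes given next and does not set the enzymes apart. With LPS, 3 members were higher in high clones (Egln3, Ero1a and Ddit4) and 0 lower, where 0.982% of all genes were called higher and 0.333% lower. Unstimulated, Ddit4 alone was called, where 0.92% of all genes were called higher and 0.216% lower; Ero1a joined it with the clone as a block. The median log2 difference of the enzymes and transporters was 0.01 with LPS and 0.03 unstimulated. That of the 10 HIF genes was 0.16 and 0.21, and the median over all genes was −0.003 in both conditions.

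**Figure D3:**
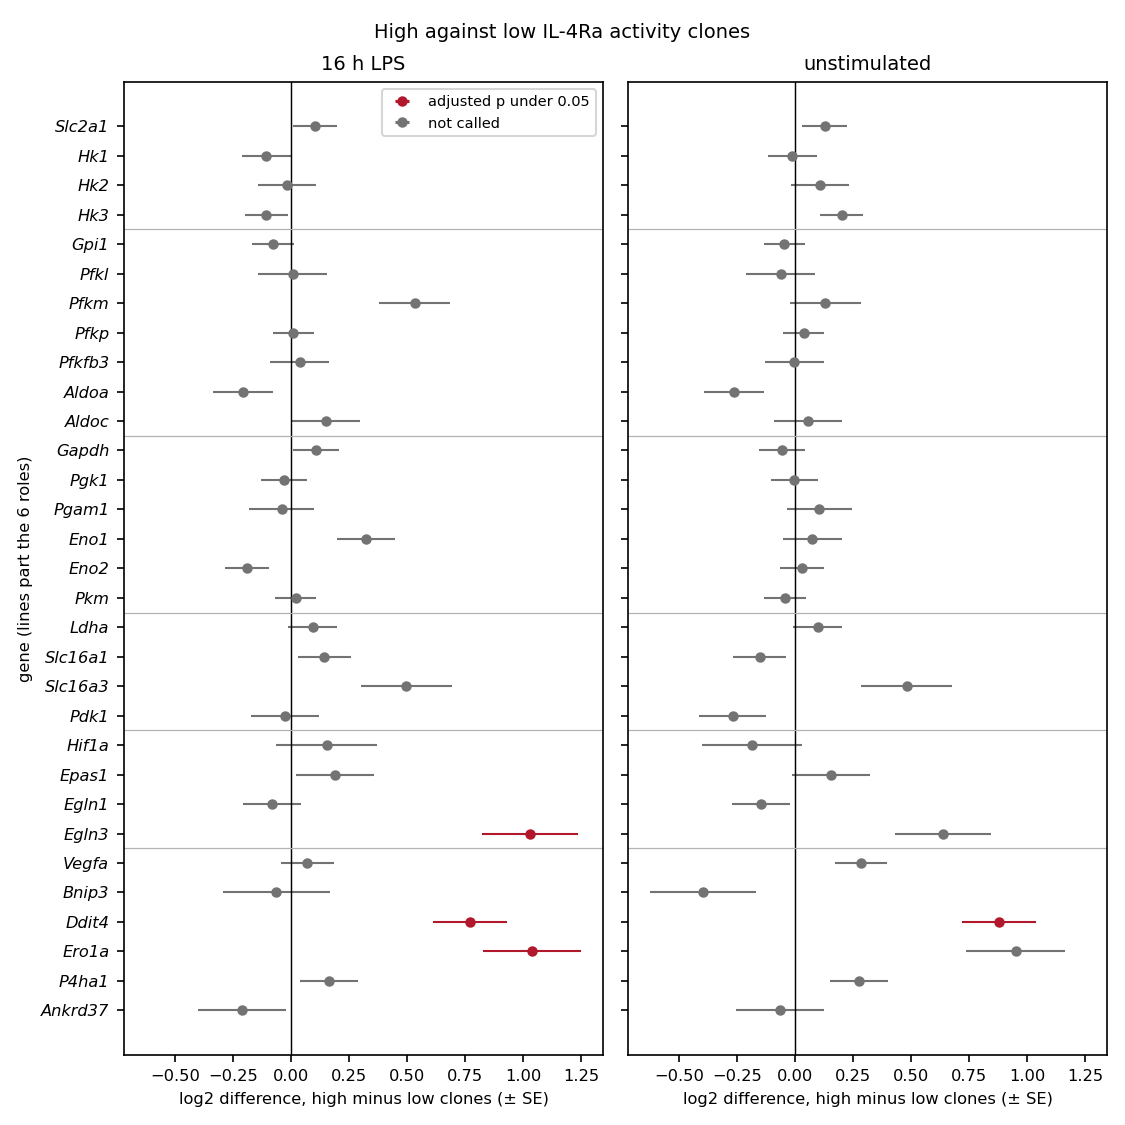
Difference on the log2 scale of each member, high minus low clones, with its SE, after LPS (left) and unstimulated (right); red points have an adjusted p under 0.05 and lines part the 6 roles. Egln3 (1.03), Ddit4 (0.77) and Ero1a (1.04) are called with LPS and Ddit4 (0.88) unstimulated, and 0 enzymes or transporters are. Of all genes, 0.982% were called higher with LPS and 0.92% unstimulated.

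Ddit4 (chromosome 10, 59949675 to 59951770, minus strand) separated the phenotypes in both conditions. With LPS it stood at 6.18, 6.06 and 5.90 in high clones 69, 73 and 83 and at 5.07, 5.31 and 5.44 in low clones 7, 29 and 75; unstimulated, it stood at 6.48, 6.25 and 5.97 in the high clones and at 5.07, 5.50 and 5.50 in the low clones. Every high array lay above every low array, at levels below the intron background. The log2 difference was 0.77 ± 0.16 with LPS (1.71-fold, adjusted p = 0.0335) and 0.88 ± 0.16 unstimulated (1.84-fold, adjusted p = 0.0209). With LPS it was not called without the LPS sample of clone 69 (adjusted p = 0.115), 73 (0.106), 83 (0.0706), 7 (0.129), 29 (0.0858) or 75 (0.0555). Unstimulated, it was not called without the unstimulated sample of clone 69 (0.0739), 73 (0.0584), 7 (0.0779) or 29 (0.0606).

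Egln3 had the levels given above, with LPS 10.61 ± 0.32 in high clones and 9.58 ± 0.15 in low clones (SD, n = 3 each). The phenotypes did not overlap with LPS and differed by 1.03 ± 0.21 (2.04-fold, adjusted p = 0.0294 in limma). Unstimulated, the means were 10.87 ± 0.23 in high clones and 10.24 ± 0.41 in low clones, with overlap through clone 75, and the difference of 0.64 ± 0.21 was not called (adjusted p = 0.223). The LPS difference was not called without the LPS sample of clone 73 (0.87, adjusted p = 0.12), 83 (1.02, 0.108), 7 (0.97, 0.101), 29 (1.11, 0.0605) or 75 (1.01, 0.105).

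Ero1a (chromosome 14, 45283087 to 45318572, minus strand) stood at 10.50, 10.74 and 10.00 with LPS in high clones 69, 73 and 83 and at 9.41, 9.07 and 9.64 in low clones 7, 29 and 75. Unstimulated, it stood at 9.92, 10.41 and 9.76 in the high clones and at 9.07, 8.91 and 9.26 in the low clones. High and low clones did not overlap in either condition. The log2 difference was 1.04 ± 0.21 with LPS (2.06-fold, adjusted p = 0.0315) and 0.95 ± 0.21 unstimulated (adjusted p = 0.0534, and 0.0373 with the clone as a random block). With LPS the call was lost without the LPS sample of clone 69 (adjusted p = 0.102), 73 (0.131), 7 (0.0877) or 29 (0.113). Unstimulated, it was called without the LPS sample of clone 73 (0.0486) or 83 (0.0354). The second feature, on the opposite strand, stood at 6.17 to 6.76 in low clones and at 6.80 to 7.91 in high clones. It passed background only in the LPS samples of clones 69 (7.49) and 73 (7.91), so all its unstimulated values lay below background. It differed by 0.93 ± 0.17 with LPS (adjusted p = 0.0156) and 0.53 ± 0.17 unstimulated (adjusted p = 0.198).

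Ero1a is the only member on chromosome 14, and genes of that chromosome were higher in the high clones as a group. Among 264 chromosome 14 genes with a mean log2 level of at least 7, the median difference, high minus low, was 0.52 with LPS and 0.49 unstimulated, and 128 and 102 of them were called higher. On chromosome 15, which holds Pfkm, the medians over 332 genes were 0.29 and 0.24. The other 18 chromosomes had medians from −0.05 to 0.14 with LPS and from −0.08 to 0.10 unstimulated. The difference of Ero1a exceeded the chromosome 14 median by 0.52 with LPS and 0.46 unstimulated, and 3 and 5 of the 264 genes had a larger difference. After each array was centred on the median of the gene's chromosome, Ero1a differed by 0.53 with LPS (adjusted p = 0.314) and 0.47 unstimulated (adjusted p = 0.435) and was not called. Centred in the same way, Ddit4 was still called (0.75, adjusted p = 0.0447 with LPS, and 0.89, adjusted p = 0.0368 unstimulated), as was Egln3 with LPS (0.90, adjusted p = 0.0333).

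**Figure D4:**
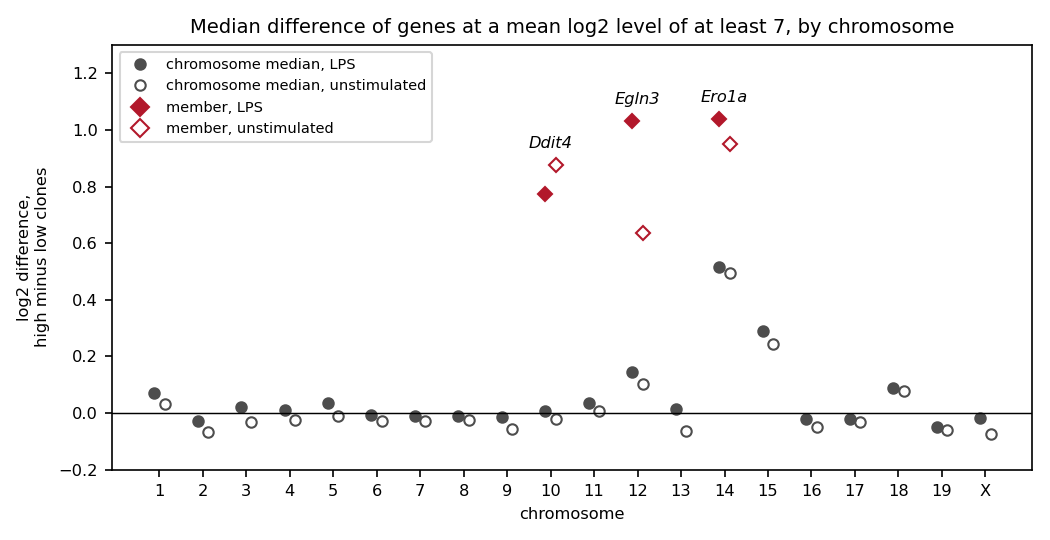
Median difference on the log2 scale, high minus low clones, over the genes of each chromosome with a mean log2 level of at least 7 (circles, filled with LPS and open unstimulated), with the 3 members called between phenotypes as diamonds. Chromosome 14 stands at 0.52 with LPS and 0.49 unstimulated and chromosome 15 at 0.29 and 0.24, while the chromosomes of Ddit4 and Egln3 lie between −0.02 and 0.14.

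The promoters of the members that differed between phenotypes are shown in the same way, with capitals for the HIF core on either strand.
Ddit4 promoter, chr10:59951721-59952020, minus strand: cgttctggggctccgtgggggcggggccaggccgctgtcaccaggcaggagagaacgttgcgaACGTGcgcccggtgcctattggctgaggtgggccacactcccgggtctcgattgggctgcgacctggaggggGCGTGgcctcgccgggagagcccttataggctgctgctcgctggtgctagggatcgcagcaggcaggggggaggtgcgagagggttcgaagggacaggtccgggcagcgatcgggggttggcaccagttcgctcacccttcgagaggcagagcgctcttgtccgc
Egln3 promoter, chr12:54203825-54204124, minus strand: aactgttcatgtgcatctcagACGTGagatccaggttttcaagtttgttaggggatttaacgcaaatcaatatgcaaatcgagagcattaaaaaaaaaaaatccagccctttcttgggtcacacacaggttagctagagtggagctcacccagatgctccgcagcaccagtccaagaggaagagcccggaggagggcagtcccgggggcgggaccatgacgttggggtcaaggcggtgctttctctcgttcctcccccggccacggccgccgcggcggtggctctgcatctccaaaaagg
Ero1a promoter, chr14:45318523-45318822, minus strand: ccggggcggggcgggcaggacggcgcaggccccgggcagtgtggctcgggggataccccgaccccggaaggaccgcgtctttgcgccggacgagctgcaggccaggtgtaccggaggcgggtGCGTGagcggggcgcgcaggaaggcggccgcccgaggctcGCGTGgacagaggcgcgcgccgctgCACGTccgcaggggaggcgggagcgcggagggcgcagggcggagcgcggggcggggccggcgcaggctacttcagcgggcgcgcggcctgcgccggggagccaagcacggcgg
Ddit4 holds 2 cores, Egln3 holds 1 and Ero1a 3. These too are matches of letters only, of a kind found in 80% of the members' promoters.

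The enzymes and transporters with the lowest adjusted p between phenotypes were Pfkm, Eno1 and Slc16a3, and none of these was called. Pfkm differed by 0.53 ± 0.15 with LPS (adjusted p = 0.143), without overlap between high and low clones, and by 0.13 ± 0.15 unstimulated (adjusted p = 0.862). It lies on chromosome 15, and with each array centred on its chromosome's median the differences were 0.24 with LPS (adjusted p = 0.528) and −0.12 unstimulated (adjusted p = 0.841), so the sign unstimulated depends on that choice. Eno1 stood at 7.16, 6.90 and 7.12 with LPS in high clones 69, 73 and 83 and at 6.79, 6.62 and 6.80 in low clones 7, 29 and 75, below background but without overlap, and differed by 0.32 ± 0.13 (adjusted p = 0.341). Slc16a3, the lactate exporter MCT4, stood at 9.59, 9.61 and 9.25 with LPS in high clones 69, 73 and 83 and at 9.45, 8.61 and 8.90 in low clones 7, 29 and 75, against unstimulated levels of 9.47, 9.47 and 9.16 in the high clones and 8.96, 8.62 and 9.08 in the low clones. The groups overlapped with LPS and not without it, and the differences were 0.50 ± 0.20 and 0.48 ± 0.20 (adjusted p = 0.353 and 0.392). Other members separated too. Eno2 with LPS, and Gpi1, Aldoa and Gapdh unstimulated, were lower in high clones without overlap. Slc2a1, Hk3, Vegfa and P4ha1 were higher in high clones without overlap when unstimulated. None of these differences was called, and the share of all genes that separate in this way is not given.

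Further genes of the same pathways, taken from lists of 79 genes that are not members, had 7 higher and 13 lower with LPS over all clones, where 5.72% of all genes were called higher and 6.72% lower, with a median log2 change of −0.03. The counts of each list are to be read against those shares; the 7 of 79 are near the first. Pfkfb4, Pdk2, Pgls, Arnt2, Siah2 and Edn1, named among them, had all 4 group means below 7.10, the lowest intron background of any array. Among 19 other glycolysis and gluconeogenesis genes, Slc2a6, a lysosomal hexose transporter, rose (1.01 ± 0.15, adjusted p = 0.000486). In that list Eno3, the muscle enolase (−0.85 ± 0.10, adjusted p = 9.65e-05), Galm, which interconverts sugar anomers (−0.57 ± 0.10), and Pfkfb4, a relative of Pfkfb3 (−0.36 ± 0.08), fell. Of 13 genes of pyruvate entry into mitochondria 0 rose and 4 fell, among them those of the kinase Pdk2 (−0.42 ± 0.12), the phosphatase Pdp1 (−0.35 ± 0.09) and its regulatory subunit Pdpr (−0.33 ± 0.08). Of 8 pentose phosphate genes Pgd rose (0.32 ± 0.09) and Pgls fell (−0.25 ± 0.06), both enzymes of the oxidative branch.

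Of 11 other HIF pathway regulators, Arnt2, an alternative partner of the alpha subunits (1.46 ± 0.24, adjusted p = 0.0013), and Siah2, a ligase that acts on the Egln proteins (0.38 ± 0.09), rose and 0 fell. Of 28 other HIF targets 3 rose and 5 fell. Among those that rose were the vasoconstrictor Edn1 (0.87 ± 0.23, adjusted p = 0.0228) and the adenylate kinase Ak4 (0.55 ± 0.13, adjusted p = 0.0145). Falls included the chemokine receptor Cxcr4 (−1.11 ± 0.11, adjusted p = 3.04e-05), the collagen hydroxylase Plod1 (−0.78 ± 0.08) and Ndrg1 (−0.70 ± 0.14). Between phenotypes, 2 of the 79 genes were higher in high clones with LPS (0.982% of all genes), Tkt (0.58 ± 0.10, adjusted p = 0.0157) and Pdhb (0.75 ± 0.16, adjusted p = 0.036), a transketolase and a pyruvate dehydrogenase subunit. Both lie on chromosome 14, where the median difference was 0.52. Pdp1 was lower in high clones, with differences of −0.60 ± 0.13 with LPS (adjusted p = 0.0434) and −0.78 ± 0.13 unstimulated (adjusted p = 0.0145). Tkt was also called unstimulated (0.48 ± 0.10, adjusted p = 0.0426).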

How the data were processed

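The values were deposited by the authors on a log2 scale. Per the file headers they come from RMA in Affymetrix Expression Console, version not given in the sources used here: background correction, quantile normalization and median polish of the probes of a transcript cluster. Coordinates are those of NetAffx build 34 on mm10, per the file headers. Of 41345 features, 33793 belong to the main category and 29294 carry a symbol; 1885 symbols were updated through a RefSeq table (GRCm38.p6). The feature with the highest mean stood for each of 1370 genes with several, among them 5 members, which left 27296 genes. There were 0 unused columns of values per sample.

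limma 3.58.1 (lmFit and eBayes, defaults) in R 4.3.3 was fitted to 4 groups over all 12 arrays, with statmod 1.5.0 and version 1.17.8 of data.table. Tests were two-sided; calls needed a p under 0.05 after Benjamini-Hochberg adjustment over all genes. Errors beside log2 changes are SEs of the fit. The scripts were tested on simulated data. Arrays carry their clone's name in the labels, which pairs them. Deviations of a clone's arrays from the group means correlated at 0.100 to 0.415, over 0.1 in every clone when unrounded; the clone was therefore also fitted as a fixed block (LPS changes) or a random one (high against low clones, consensus correlation 0.2103). Members were given value by value where a fit with or without the block called them in any comparison or their log2 change reached 0.5, and the others by their change; at most 3 called genes each way were named per further list, and 1 of these is not reported here; a few more values (Hif1a, Slc16a3, Eno1, Hk3) were chosen after the values were seen. The members and lists were chosen with earlier results of these data known. The number of arrays limits the precision, and no batch is given in the labels. Alternatives left out each array or clone, dim genes or the other groups, centred arrays or chromosomes, averaged features, or used a trended and robust variance.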

Additional observations from a re-analysis of the deposited data

How the results depend on the processing

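The calls of Hk2, Pfkm, Aldoc, Epas1 and Vegfa with LPS over all clones held under all 24 alternatives; Pdk1 held in 22, Aldoa in 10 and Pfkp in 5. Of 665 values of called changes under the alternatives, 515 stayed on their side of the threshold, 130 were no longer called, 20 became called and 0 reversed; of 159 changes called neither with nor without the block, 2 were called under some other setting and 73 changed sign. Members called with LPS over all clones numbered 8, and 5 to 8 without 1 array or clone (5 without clone 73). In the high clones there were 4, then 1 with only the groups compared in the fit and 1 to 5 without 1 array or clone, and in the low clones 6, then 4 to 7. High against low clones unstimulated gave 1 call, and 2 with the clone as a block, 0 with only the groups compared, 2 with dim genes left out, 2 with a trended and robust variance and 0 to 2 without 1 array or clone. With LPS there were 3 calls, 1 with only the groups compared, 2 with chromosome centring (chosen after seeing the data) and 0 to 3 without 1 array or clone; the count was 0 without the LPS sample of clone 7, 29 or 73, or without clone 7, 29, 73 or 75. The cause of these shifts was not tested, though a fit of fewer arrays has fewer degrees of freedom. Chromosome centring ended the calls of Ero1a with LPS (0.53), of Aldoa (−0.28, adjusted p = 0.0762) and of Aldoc in high clones (−0.57, 0.0571), and added those of Egln3 over all clones (−0.45, 0.0303) and in low clones (−0.63, 0.0467) and of Hk3 in high clones (−0.37, 0.0396). The clone as a block changed no other call than those given in the text and that of Egln3 in the low clones (−0.66, adjusted p = 0.0748 without and 0.0206 with it). The difference of responses had 0 members called throughout. Fitting only the groups compared gives no separate value for comparisons that use all groups.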
